A study of Mus musculus with 12 samples.

Results

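The 33 genes described here encode the transcription factors, signalling proteins and markers of naive pluripotency in mouse embryonic stem (ES) cells, together with the receptor chains, kinase, transcription factor and inhibitor of the LIF pathway. They were chosen by name. All 33 had a probe set annotated to that gene alone, among 22180 genes with such a probe set, and 0 of them also lay on a probe set shared with another gene. For Sall4, Gbx2 and Socs3, which had 2 probe sets each, the one with the higher mean was used.

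RNA was measured on 12 Affymetrix arrays in 4 groups of 3. All cells were mouse ES cells with a MERVL::tdTomato reporter, a red fluorescent protein driven by a retroviral element that is active in 2-cell embryos, and all were grown on gelatin with LIF and 15% knock-out serum replacement. The groups were the parental reporter cells, the same reporter cells with a Dppa2/4 knockout (KO), and KO cells transfected with plasmids for both proteins as GFP fusions, either wild-type (KO+WT) or deficient for SUMO modification (KO+Mut). Dppa2 and Dppa4 are chromatin proteins of early embryos and ES cells; SUMO is a small ubiquitin-like modifier of proteins. Only for the add-backs do the labels mention lipofectamine transfection and flow sorting on GFP, so the effect of the proteins and that of these steps cannot be told apart in a comparison with KO or parental cells. The promoter of the plasmids, the number of KO clones and the deleted sequence were not given in the sources used here. The replicates are called biological, with no further detail, so p-values measure the spread between these arrays.

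ES cells in the naive state resemble the early epiblast. Oct4 (encoded by Pou5f1), Sox2 and Nanog bind many of the same enhancers and sustain each other's transcription, and a wider set of factors, among them Klf4, Esrrb and Tfcp2l1, keeps this network active. LIF binds a receptor made of Lifr and the gp130 chain (Il6st), which activates the kinase Jak1. Jak1 phosphorylates Stat3, and Stat3 induces naive factors as well as Socs3, its own inhibitor. FGF4 signalling acts against this state and primes the cells for differentiation.

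Promoter sequences from RefSeq (build GRCm38.p6) were found by symbol for 26 of the 33 genes, and the 250 bases upstream of the start were searched on both strands. The motif TTCNNNGAA, to which STAT dimers bind, was present in 3 of the 26 genes (11.5%), Socs3, Esrrb and Lin28a, against 8.13% of all 27025 genes in that table. The octamer ATTTGCAT, which POU factors such as Oct4 recognise, was present in 1 of the 26, Zfp42 (3.85%), against 1.81%. Stretches of 3 of these promoters are shown because Socs3 is the feedback target of the LIF pathway, Lin28a was the gene with 2 matches, and Zfp42 held the octamer. Capitals mark the matches, each sequence runs 5′ to 3′ on the strand of its gene, and a match is not evidence of binding.
Socs3 (chr11:117969472-117969560, minus strand): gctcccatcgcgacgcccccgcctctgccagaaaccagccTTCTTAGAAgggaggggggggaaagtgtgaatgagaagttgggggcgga
Lin28a (chr4:134018817-134019066, minus strand): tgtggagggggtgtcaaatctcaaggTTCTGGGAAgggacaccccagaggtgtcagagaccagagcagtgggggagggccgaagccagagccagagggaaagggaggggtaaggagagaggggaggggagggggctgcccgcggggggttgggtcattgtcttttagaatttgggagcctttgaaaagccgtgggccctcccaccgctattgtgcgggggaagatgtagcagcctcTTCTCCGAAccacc
Zfp42 (chr8:43307148-43307235, minus strand): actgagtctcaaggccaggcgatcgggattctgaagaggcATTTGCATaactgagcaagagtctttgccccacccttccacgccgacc

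The deposited values are log2 signals, and array medians over all probe sets lay between 3.73 and 3.88. All 33 genes were above the median of their array on all 12 arrays. With no detection calls, low values cannot be separated from background. Dppa2 signal was 9.35 to 10.17 in parental cells, 8.13 to 8.69 in KO, 10.79 to 11.34 in KO+WT and 11.12 to 11.30 in KO+Mut, and Dppa4 was 8.24 to 8.58, 7.31 to 7.92, 10.09 to 10.58 and 10.39 to 10.67 in that order. Probes outside the deleted part would not report the knockout. Precision is limited by the 3 arrays in each group.

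Of the 33 genes 2, Fbxo15 and Prdm14, differed among the 4 groups (limma's moderated F test over the 4 group means, adjusted over all genes, adjusted p = 0.0012 and 0.0111). The share over all genes was 1.47%. With the replicate number as a block, 11 of the 33 differed, against 3.92% of all genes. Between arrays of a group the 33 genes had a median SD of 0.16 (log2), and the range of their 4 group means had a median of 0.32, against 0.20 and 0.26 over all genes.

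**Figure D1:**
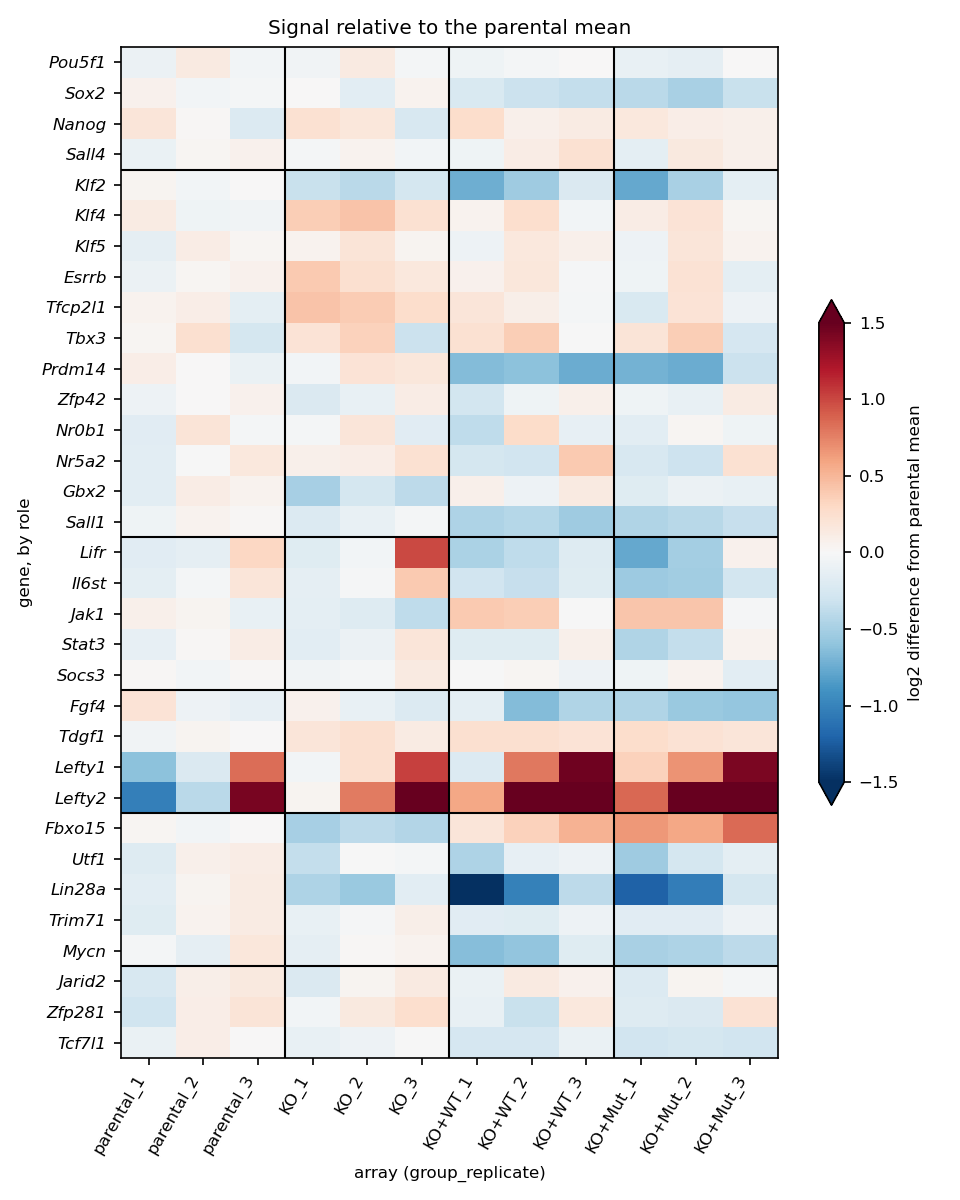
Signal of the 33 genes (rows, ordered by role, black lines between roles) on the 12 arrays (columns, black lines between groups) as the log2 difference from the mean of the 3 parental arrays; colours saturate at 1.5 in either direction. Fbxo15 is below the parental mean on the KO arrays and above it on the add-back arrays, Prdm14 is below it on the 6 add-back arrays, and Lefty1 and Lefty2 differ between replicate numbers in every group.

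Loss of Dppa2 and Dppa4 was compared with parental cells to ask whether the network depends on them. With limma, 0 of the 33 genes rose and 0 fell at an adjusted p under 0.05, where 0.0361% of all genes rose and 0.203% fell. Blocking on the replicate number also gave 0 and 0, against 0.18% and 0.437% of all genes. At an unadjusted p under 0.05 there were 2 higher and 2 lower genes, against 3% and 3.94% of all genes. Klf4 and Tfcp2l1 were the higher pair, with differences of 0.35 (SE 0.12) and 0.36 (SE 0.13), and Fbxo15 and Gbx2 the lower pair, with differences of -0.44 (SE 0.12) and -0.38 (SE 0.12); their adjusted p were 0.485, 0.542, 0.28 and 0.385. The median difference of the 33 genes was 0.00, as it was over all genes. The gene furthest from 0 was Lefty2, at 1.04 (SE 0.67, 2.05-fold, adjusted p = 0.883), higher in 3 of 3 number pairs by 1.07, 1.18 and 0.86 (blocked SE 0.21, blocked adjusted p = 0.0737). Lefty1, at 0.41 (SE 0.45, adjusted p = 0.981, blocked 0.297), was also higher in 3 of 3 pairs. For 31 of the 33 the 95% interval of the difference stayed within a 2-fold change in either direction, the exceptions being Lefty1 and Lefty2, and for 24 it stayed within 1.5-fold.

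Adding back Dppa2 and Dppa4 to KO cells was accompanied by a rise of Fbxo15 and a fall of Prdm14 with both forms of the proteins. In each comparison with KO, 1 of the 33 genes rose and 1 fell. For KO+WT the shares over all genes were 0.73% higher and 0.0992% lower, and for KO+Mut 1.12% and 0.153%. With every array shifted to a common median, the higher genes made up 75.2% of all calls for KO+WT in place of 88%, and 72.9% for KO+Mut in place of 87.9%. Of the 33 genes 23 were lower than in KO in each comparison, with medians of -0.09 and -0.13, against 0.00 and -0.01 over all genes. The 2 comparisons share the KO arrays, so their values are not independent of each other.

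**Figure D2:**
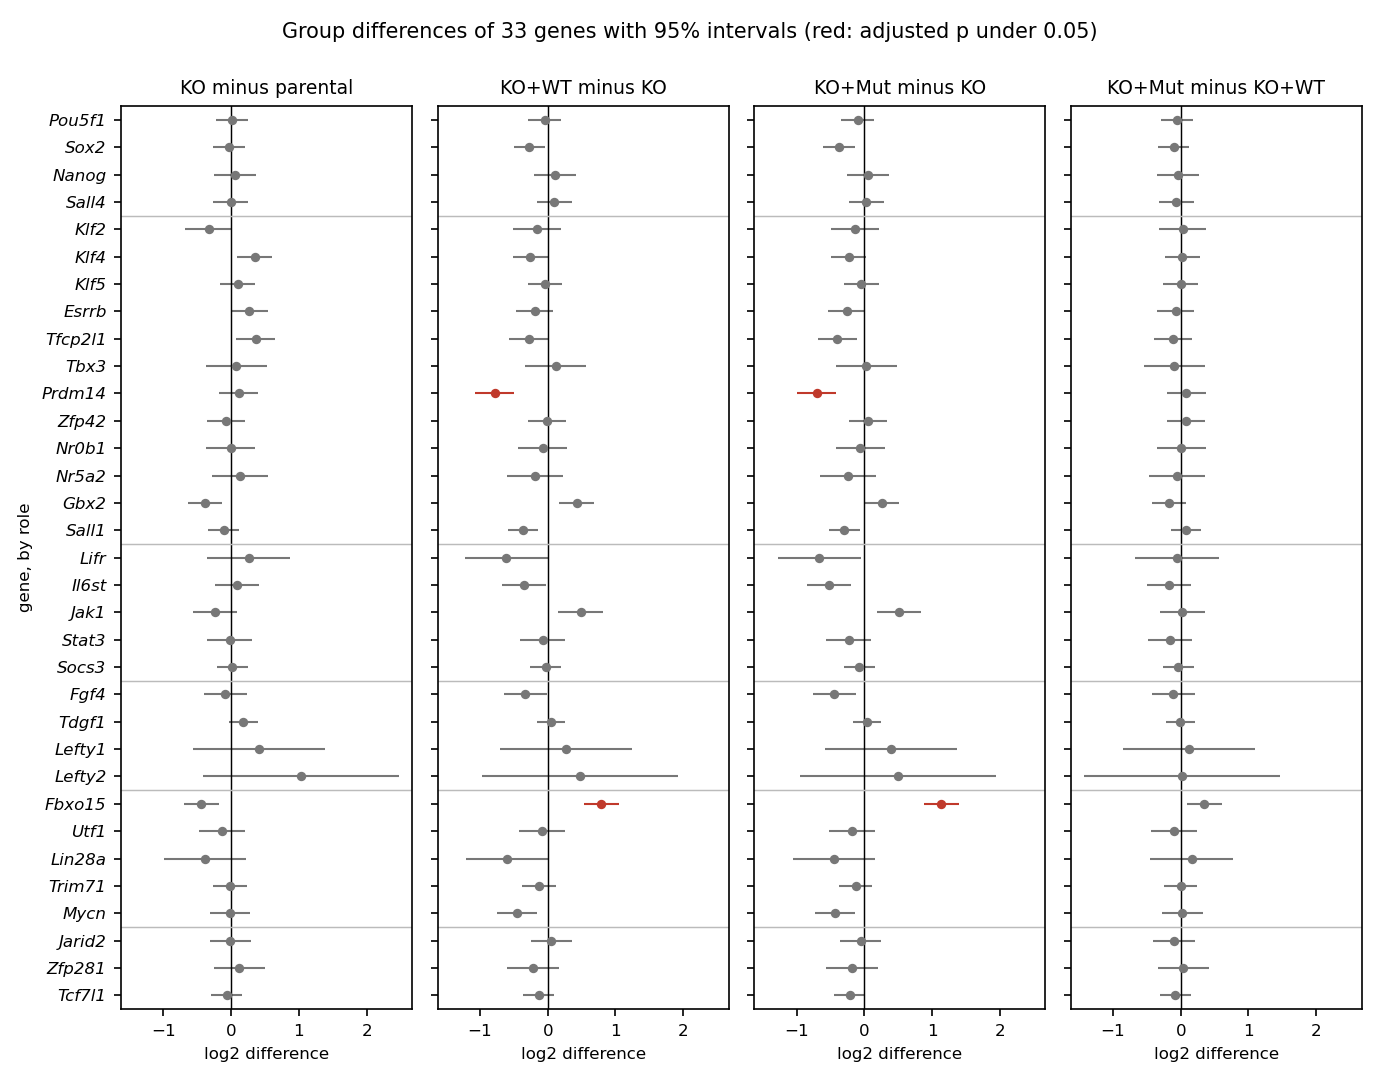
Log2 difference between groups for each of the 33 genes (points) with its 95% interval from limma (bars), in 4 comparisons; n = 3 arrays per group, red marks an adjusted p under 0.05. Prdm14 and Fbxo15 pass in both add-backs against KO, 0 genes pass in KO against parental cells or between the add-backs, and the widest intervals are those of Lefty2.

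Fbxo15 (probe set 17352241) encodes an F-box protein and is a known target of Oct4 and Sox2 that has served as a reporter of pluripotency. Its signal was 9.14, 9.07 and 9.11 on parental replicates 1, 2 and 3, 8.60, 8.72 and 8.67 on the KO replicates, 9.28, 9.45 and 9.63 in KO+WT, then 9.76, 9.69 and 9.95 in KO+Mut. The 4 groups did not overlap, with KO lowest and KO+Mut highest. Against KO, Fbxo15 rose by 0.79 in KO+WT (SE 0.12, 1.73-fold, limma adjusted p = 0.00689) and by 1.13 in KO+Mut (SE 0.12, 2.20-fold, adjusted p = 0.000283). Both calls were kept whichever of the compared arrays was left out. In a fit of the 6 compared arrays alone the KO+WT call was lost (adjusted p = 0.0655). Relative to parental cells Fbxo15 was 0.69 higher in KO+Mut (SE 0.12, adjusted p = 0.0134), while the KO+WT difference of 0.35 did not pass (adjusted p = 0.302). The KO+Mut call against parental cells was lost without parental replicates 2 and 3 (adjusted p = 0.0706 and 0.0616) and without KO+Mut replicate 3 (0.0636).

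Prdm14 (probe set 17221307) encodes a PR-domain protein that represses FGF signalling and DNA methyltransferase genes in naive cells and is needed in early germ cells. It measured 6.57, 6.47 and 6.37 on the parental arrays and 6.43, 6.67 and 6.65 on the KO arrays, and was lower on all 6 add-back arrays, with 5.82, 5.86 and 5.73 in KO+WT, then 5.76, 5.73 and 6.15 in KO+Mut. Parental and KO arrays overlapped, with a difference of 0.11 (SE 0.13, adjusted p = 0.986). Against KO, Prdm14 fell by 0.78 in KO+WT (SE 0.13, 1.72-fold, adjusted p = 0.0148) and by 0.70 in KO+Mut (SE 0.13, 1.63-fold, adjusted p = 0.0194). The first call was lost without KO replicates 2 and 3 (adjusted p = 0.0783 and 0.0695) and KO+WT replicates 2 and 3 (0.0503 and 0.0524). The second was lost without KO replicates 2 and 3 (0.0929 and 0.0814) and KO+Mut replicates 1 and 2 (0.0839 and 0.107). In fits of the 6 compared arrays alone the adjusted p were 0.0583 and 0.0936. Relative to parental cells Prdm14 fell by 0.67 in KO+WT (SE 0.13, adjusted p = 0.0464), a call lost whichever of the 6 arrays was left out (adjusted p from 0.0957 without KO+WT replicate 1 to 0.172 without parental replicate 1) and after repeated quantile normalization (0.0635). In KO+Mut the difference from parental cells was -0.59 (adjusted p = 0.0592, and 0.0407 with the replicate block).

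**Figure D3:**
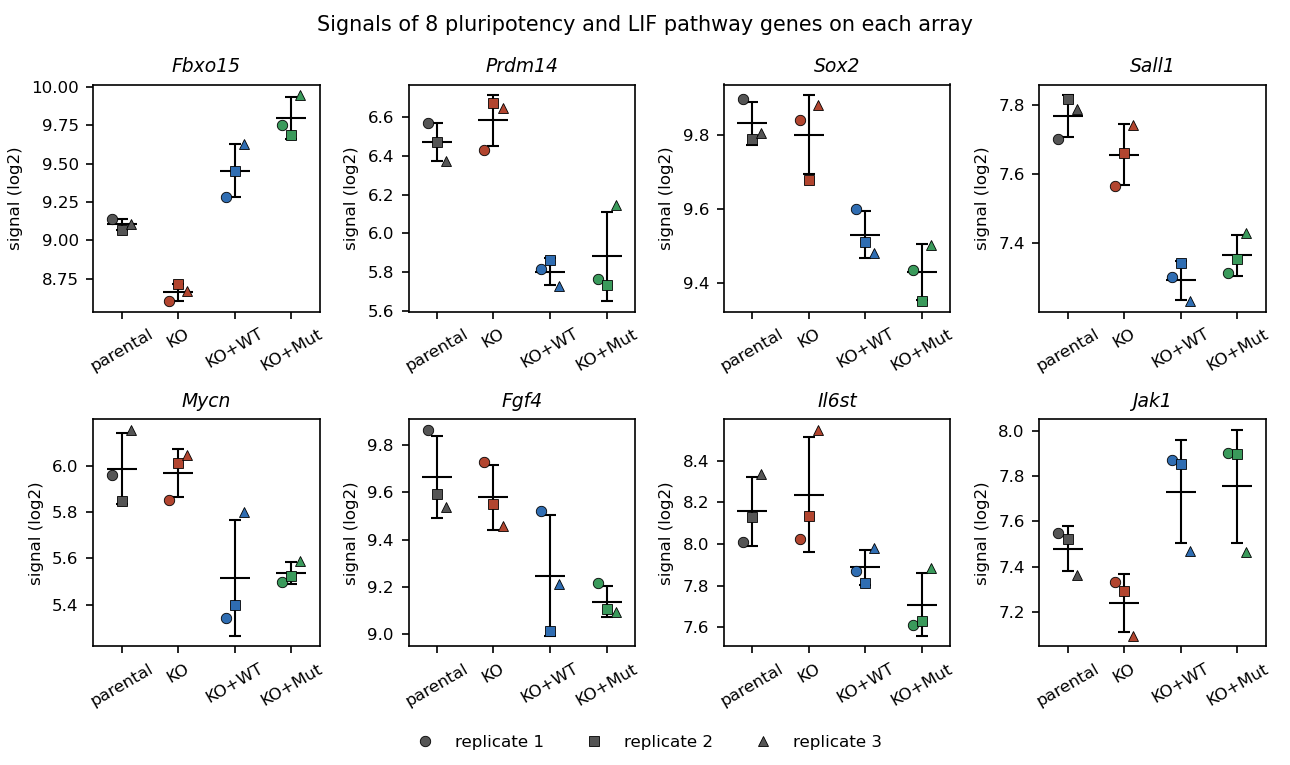
Log2 signal on each array (points, shape gives the replicate number) of 8 of the genes in the 4 groups, with the group mean (horizontal bar) and SD (n = 3); each panel has its own axis, which does not start at 0. The 6 add-back arrays lie above all KO and parental arrays for Fbxo15 and below them for Prdm14, Sox2, Sall1, Mycn and Il6st.

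For 5 of the 33 genes, Sox2, Prdm14, Sall1, Il6st and Mycn, all 6 add-back arrays lay below all 6 KO and parental arrays, a pattern held by 1.51% of all genes. For Fbxo15 alone among the 33 they all lay above, as for 1.75% of all genes. This pattern was sought after the values were seen.

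Of the core factors, Pou5f1 signal was 6.64 to 6.87 in parental cells, 6.68 to 6.87 in KO, 6.67 to 6.75 in KO+WT and 6.60 to 6.74 in KO+Mut, and its largest difference between groups was -0.10 (KO+Mut minus KO, 95% interval -0.34 to 0.14). Nanog, a homeobox factor of the inner cell mass, ranged from 10.29 to 10.68, 10.25 to 10.72, 10.57 to 10.76 and 10.56 to 10.65 in the same order of groups. Sall4, a zinc finger partner of Oct4, ranged from 8.98 to 9.36 over the 12 arrays. These 3 genes overlapped between all groups, and their adjusted p in comparisons with KO were 0.783 or higher. The second Sall4 probe set had lower signals and also overlapped between all groups. It gave 3.01 to 3.68 in parental cells, 2.46 to 3.41 in KO, 3.14 to 3.67 in KO+WT and 2.83 to 3.83 in KO+Mut.

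Sox2, the HMG-box partner of Oct4, measured 9.90, 9.79 and 9.81 in parental cells, 9.84, 9.68 and 9.88 in KO, 9.60, 9.51 and 9.48 in KO+WT, then 9.43, 9.35 and 9.50 in KO+Mut. The add-back arrays were the lower ones, without overlap. Against KO the differences were -0.27 (SE 0.11, adjusted p = 0.33) and -0.37 (SE 0.11, adjusted p = 0.135). With the replicate block that of KO+Mut passed (limma adjusted p = 0.0461) and that of KO+WT did not (0.129). Against parental cells, Sox2 in KO+Mut differed by -0.40 (SE 0.11, adjusted p = 0.118), which passed with the replicate block (adjusted p = 0.0344).

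Of the 12 transcription factors of the naive state, Prdm14 was the 1 that passed without the block. Klf2, Klf4 and Klf5 are Krüppel-like factors with overlapping targets. Klf4, which LIF induces through Stat3, was 8.10 to 8.29 in parental cells and 8.40 to 8.59 in KO, without overlap, and 8.13 to 8.42 and 8.19 to 8.37 in KO+WT and KO+Mut. Klf2 had its highest values in parental cells, with 8.06 to 8.14 in parental cells, 7.70 to 7.83 in KO, 7.36 to 7.89 in KO+WT and 7.34 to 7.95 in KO+Mut; its difference between KO+WT and parental cells was -0.49 (SE 0.16, adjusted p = 0.279). Klf5 stayed between 9.56 and 9.88 on all arrays.

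Esrrb, an orphan nuclear receptor, and Tfcp2l1, a grainyhead-family factor downstream of LIF, were both higher in KO than in parental cells without overlap, at 6.52 to 6.77 against 6.28 to 6.43 for Esrrb and 9.06 to 9.22 against 8.64 to 8.89 for Tfcp2l1. In the add-backs they measured 6.35 to 6.55 and 6.22 to 6.59 for Esrrb, and 8.76 to 8.98 and 8.56 to 8.997 for Tfcp2l1. Tfcp2l1 differed between KO+Mut and KO by -0.40 (SE 0.13, adjusted p = 0.219). None of these differences passed. KO and parental arrays did not overlap for 8 of the 33 genes, 4 in each direction, against 6.11% of all genes higher and 6.83% lower.

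The homeobox gene Gbx2, a Stat3 target, gave 5.91, 6.18 and 6.12 in parental cells, 5.57, 5.81 and 5.68 in KO, 6.14, 5.996 and 6.20 in KO+WT, then 5.88, 5.98 and 5.96 in KO+Mut. The KO arrays were the lowest and overlapped with no other group. The difference between KO+WT and KO was 0.43 (SE 0.12, adjusted p = 0.145). The second Gbx2 probe set gave 5.67 to 5.76 in KO, 5.67 to 6.23 in parental cells, 5.66 to 6.14 in KO+WT and 5.43 to 5.84 in KO+Mut, so that its KO arrays overlapped with all other groups. Its mean was lower in KO+Mut (5.59) than in KO (5.72), opposite to the first probe set (5.94 and 5.69).

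Sall1, a zinc finger factor that interacts with Nanog, measured 7.70, 7.82 and 7.79 in parental cells, 7.56, 7.66 and 7.74 in KO, 7.30, 7.34 and 7.23 in KO+WT, then 7.31, 7.35 and 7.43 in KO+Mut. The add-back arrays were lower than all others. Against KO the differences were -0.36 (SE 0.10, adjusted p = 0.156) and -0.29 (adjusted p = 0.245). Against parental cells they were -0.48 (adjusted p = 0.0691, and 0.0246 with the replicate block) and -0.40 (adjusted p = 0.104, and 0.0338 with the block).

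Zfp42 (Rex1), the classical marker of naive cells whose upstream octamer is shown above, ranged from 10.34 to 10.73 over all arrays, and its group means lay within 0.09 of each other. Tbx3, a T-box factor, ranged from 9.45 to 10.15, Nr0b1 (Dax1), an X-linked nuclear receptor, from 8.99 to 9.65, and Nr5a2, a nuclear receptor that can bind the Pou5f1 promoter, from 7.14 to 7.84. For these 4 genes the adjusted p were 0.675 or higher in the comparisons with KO.

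The LIF pathway genes had 0 members past the threshold in the 6 comparisons without the block. The LIF receptor gene Lifr gave 7.58, 7.61 and 8.06 in parental cells, 7.57, 7.70 and 8.74 in KO, 7.27, 7.37 and 7.55 in KO+WT, then 6.98, 7.24 and 7.81 in KO+Mut. KO replicate 3 was the highest array, and replicate 3 was the highest of its group in all 4 groups. The differences from KO of -0.61 and -0.66 had SE 0.28 each (adjusted p = 0.42 and 0.358).

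Il6st, the shared signalling chain gp130, gave 8.01, 8.13 and 8.34 in parental cells, 8.03, 8.14 and 8.55 in KO, 7.87, 7.81 and 7.98 in KO+WT, then 7.61, 7.63 and 7.88 in KO+Mut. All 6 add-back arrays were below the others. The differences from KO were -0.35 (SE 0.15, adjusted p = 0.381) and -0.53 (SE 0.15, adjusted p = 0.136). With the replicate block that of KO+Mut passed (limma adjusted p = 0.0184) and that of KO+WT did not (0.0898). The difference of KO+Mut from parental cells was -0.45 (adjusted p = 0.245, and 0.035 with the replicate block).

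Jak1, the kinase bound to these receptor chains, measured 7.55, 7.52 and 7.37 in parental cells, 7.34, 7.29 and 7.10 in KO, 7.87, 7.85 and 7.47 in KO+WT, then 7.90, 7.90 and 7.47 in KO+Mut. The add-back arrays were above the KO arrays without overlap, and replicate 3 was the lowest of each group. Against KO the differences were 0.49 (SE 0.15, adjusted p = 0.198) and 0.51 (SE 0.15, adjusted p = 0.156). With the replicate block both passed (limma adjusted p = 0.025 and 0.0161).

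Stat3 ranged from 7.94 to 8.57 over the 12 arrays. Its target Socs3, whose upstream TTCNNNGAA match is shown above, ranged from 7.07 to 7.35, with group means within 0.07 of each other. The 95% interval of the Socs3 difference was -0.21 to 0.25 for KO minus parental cells, -0.26 to 0.20 for KO+WT minus KO and -0.30 to 0.16 for KO+Mut minus KO. The second Socs3 probe set also overlapped between all groups, with 5.28 to 5.51 in parental cells, 5.40 to 5.66 in KO, 5.19 to 5.58 in KO+WT and 5.18 to 5.54 in KO+Mut.

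Among the FGF and Nodal pathway genes, Fgf4, the growth factor through which ES cells signal to themselves, gave 9.87, 9.59 and 9.54 in parental cells, 9.73, 9.55 and 9.46 in KO, 9.52, 9.01 and 9.21 in KO+WT, then 9.22, 9.11 and 9.09 in KO+Mut. The KO+Mut arrays lay below all KO and parental arrays, and the KO+WT arrays overlapped with KO. The differences from KO were -0.33 (SE 0.15, adjusted p = 0.393) and -0.44 (SE 0.15, adjusted p = 0.21). With the replicate block that of KO+Mut passed (limma adjusted p = 0.0424) and that of KO+WT did not (0.113). The difference of KO+Mut from parental cells was -0.53 (adjusted p = 0.139, and 0.021 with the replicate block).

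Tdgf1 (Cripto), the co-receptor of Nodal, varied little within groups, with a pooled SD of 0.04, and measured 11.13 to 11.22 in parental cells, 11.30 to 11.41 in KO, 11.38 to 11.42 in KO+WT and 11.36 to 11.44 in KO+Mut. The parental arrays were the lowest without overlap, but the difference of 0.18 between KO and parental cells (SE 0.10) had an adjusted p of 0.825.

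Lefty1 and Lefty2, secreted inhibitors of Nodal and themselves Nodal targets, varied most within groups, with pooled SDs of 0.68 and 1.02. They are close paralogs that may share probe sequence, so their values may not be independent. Lefty2 was 5.54, 6.16 and 7.99 on parental replicates 1, 2 and 3, 6.60, 7.34 and 8.85 in KO, 7.14, 8.13 and 8.95 in KO+WT, then 7.42, 8.10 and 8.75 in KO+Mut. Lefty1 was 5.78, 6.17 and 7.22, then 6.35, 6.63 and 7.41, 6.19, 7.18 and 7.85, and 6.73, 7.06 and 7.80 in that order of groups. The array numbered 3 was the highest in every group for both genes, and arrays of all groups overlapped.

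Compared number by number, Lefty2 was higher than in parental cells by 1.61, 1.97 and 0.97 in KO+WT and by 1.89, 1.95 and 0.76 in KO+Mut. Without the block, the differences of 1.51 and 1.53 had SE 0.67 and adjusted p of 0.436 and 0.402. With the replicate block Lefty2 passed in both (adjusted p = 0.0113 and 0.00694), as did Lefty1, with differences of 0.68 and 0.81 (adjusted p = 0.0474 and 0.0195, against 0.636 and 0.543 without it). In the fit without the block these sizes depended on single arrays. The Lefty1 difference for KO+WT was 0.38 without parental replicate 1, 1.10 without parental replicate 3, 1.12 without KO+WT replicate 1 and 0.29 without KO+WT replicate 3. For KO+Mut it was 0.50 without parental replicate 1, 1.23 without parental replicate 3 and 0.51 without KO+Mut replicate 3. The Lefty2 differences were 1.003 and 1.02 without parental replicate 1, and reached 2.23 and 2.24 with another array left out. The blocked fit was not repeated with arrays left out. With the block, the shares over all genes were 1.07% higher and 0.996% lower for KO+WT against parental cells, and 1.59% and 1.54% for KO+Mut.

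**Figure D4:**
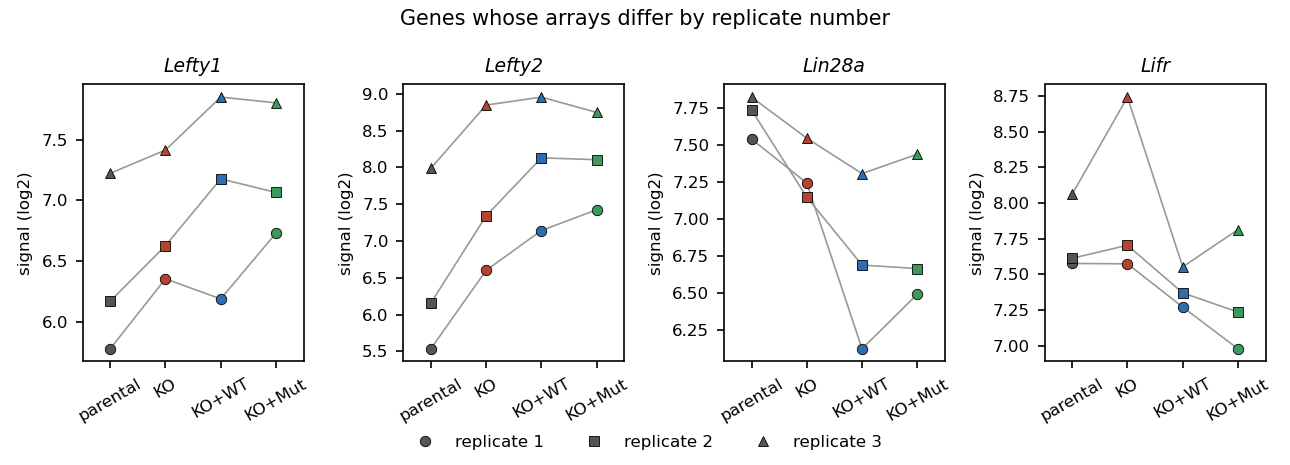
Log2 signal of Lefty1, Lefty2, Lin28a and Lifr on each array in the 4 groups; grey lines join arrays with the same replicate number (shape), and each panel has its own axis, which does not start at 0. The array numbered 3 is the highest of its group for all 4 genes, and for Lefty2 each number lies higher in KO and in the add-backs than in parental cells.

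Of the remaining markers, Lin28a encodes an RNA-binding protein that blocks maturation of let-7 microRNAs. It gave 7.54, 7.74 and 7.82 in parental cells, 7.24, 7.15 and 7.55 in KO, 6.12, 6.69 and 7.31 in KO+WT, then 6.49, 6.66 and 7.44 in KO+Mut. Both add-backs lay below the parental arrays without overlap and had a wide spread. The differences from parental cells were -0.99 (SE 0.28, adjusted p = 0.181) and -0.84 (SE 0.28, adjusted p = 0.243), which passed with the replicate block (adjusted p = 0.0263 and 0.0363).

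Mycn, the N-Myc gene, measured 5.96, 5.85 and 6.16 in parental cells, 5.85, 6.01 and 6.05 in KO, 5.34, 5.40 and 5.80 in KO+WT, then 5.497, 5.52 and 5.59 in KO+Mut. The add-back arrays were below all others. Against KO the differences were -0.45 and -0.43 (SE 0.14 each, adjusted p = 0.187 and 0.194). Against parental cells they were -0.47 and -0.45, with adjusted p of 0.204 and 0.194 without the replicate block and 0.048 and 0.0461 with it.

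Utf1, a chromatin-bound factor of ES cells, ranged from 9.74 to 10.39, and Trim71, an RNA-binding protein and let-7 target, from 7.97 to 8.27. Among the regulators that modulate the network, Jarid2, a subunit associated with Polycomb repressive complex 2, ranged from 9.15 to 9.53, Zfp281, a zinc finger factor involved in leaving the naive state, from 6.998 to 7.58, and Tcf7l1, the Wnt pathway repressor also called Tcf3, from 8.07 to 8.46. Tcf7l1 was the lowest in KO+Mut, with a difference from parental cells of -0.28 (SE 0.10, adjusted p = 0.309). All 5 genes had 95% intervals that included 0 in the comparisons of KO with parental cells and of the add-backs with KO.

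Between the wild-type and SUMO-deficient forms 0 of the 33 genes passed, as did 0 of all 22180 genes by limma, also with the replicate block. At an unadjusted p under 0.05 there was 1 higher gene of the 33, Fbxo15, against 1.38% of all genes. Fbxo15 was 0.34 higher in KO+Mut than in KO+WT (SE 0.12, 95% interval 0.09 to 0.60, unadjusted p = 0.0129, adjusted p = 1). Its arrays did not overlap, as for 3.07% of all genes in this direction. Gbx2 and Tcf7l1 did not overlap in the lower direction, as for 3.62% of all genes. Fbxo15 and Sall1 were higher in 3 of 3 number pairs. Pou5f1, Gbx2, Il6st, Stat3, Utf1, Jarid2 and Tcf7l1 were lower in 3 of 3. Prdm14 differed by 0.08 (95% interval -0.21 to 0.37). The 95% interval lay within a 1.5-fold change in either direction for 28 of the 33 genes and within 2-fold for 31. Lefty1 and Lefty2 had the wider intervals, from -0.85 to 1.10 and from -1.43 to 1.46 without the block. Compared number by number, KO+Mut minus KO+WT was 0.54, -0.11 and -0.05 for Lefty1 and 0.28, -0.02 and -0.21 for Lefty2, with SE of 0.14 and 0.21 in the blocked fit.

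Against parental cells, KO+WT had 0 higher genes and 1 lower, Prdm14, and KO+Mut had 1 higher, Fbxo15, and 0 lower. The shares over all genes were 0.32% higher and 0.23% lower for KO+WT and 0.654% and 0.338% for KO+Mut. At an unadjusted p under 0.05 there were 3 higher and 7 lower genes for KO+WT and 3 and 9 for KO+Mut, against 6.04% and 4.68% of all genes for KO+WT and 5.94% and 5.52% for KO+Mut. With the replicate block, 2 rose and 4 fell in KO+WT (Lefty1 and Lefty2, against Lin28a, Mycn, Prdm14 and Sall1), and 3 rose and 7 fell in KO+Mut (Fbxo15, Lefty1 and Lefty2, against Fgf4, Il6st, Lin28a, Mycn, Prdm14, Sall1 and Sox2). With the block the shares over all genes were 1.07% higher and 0.996% lower for KO+WT, and 1.59% and 1.54% for KO+Mut. The parental arrays are shared by the 2 comparisons. Mean Dppa2 signal was 11.08 in KO+WT and 11.20 in KO+Mut against 9.77 in parental cells. For Dppa4 the means were 10.39 and 10.54 against 8.46. The add-backs were therefore not compared with parental cells at equal Dppa2 and Dppa4 signal.

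Further genes of the same pathways, listed by name, gave few calls. Of 22 other LIF and JAK-STAT genes measured, 0 passed in any of the 6 comparisons without the block. The one of smallest p in the add-backs against KO was Il6ra, the interleukin-6 receptor chain that pairs with gp130, with differences of 1.01 and 1.04 (SE 0.27, adjusted p = 0.129 and 0.0922). Against parental cells its differences were 1.00 and 1.03, which passed with the replicate block (adjusted p = 0.0191 and 0.0116), and in KO+Mut the kinase genes Pim1 and Pim3, known Stat3 targets, fell with the block by 0.41 and 0.42 (adjusted p = 0.0447 and 0.0449). In these LIF and JAK-STAT genes the median difference from KO was -0.02 and -0.04.

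Of 16 other pluripotency-associated genes measured, 0 passed in any comparison without the block, and 13 and 14 of them were lower than in KO in KO+WT and KO+Mut, with medians of -0.12 and -0.15. Tcl1, an Akt co-activator of ES cells, had the smallest p, with differences of -0.39 and -0.49 (adjusted p = 0.17 and 0.058). With the block Jam2, an adhesion molecule gene, was higher in KO+Mut than in parental cells, by 0.46 (adjusted p = 0.031).

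Of 19 genes of the FGF, Nodal and Wnt pathways, Dusp4, a phosphatase that dampens ERK, fell in KO+Mut against parental cells by 0.99 (SE 0.19, limma adjusted p = 0.027), and the other 18 did not pass in any comparison without the block. The Dusp4 difference from parental cells was -0.91 in KO (adjusted p = 0.0995, blocked 0.00909) and -0.86 in KO+WT (adjusted p = 0.0778, blocked 0.00778). Fgfr2, a receptor for FGF, was lower with the block in KO+WT and KO+Mut than in parental cells, by 1.30 and 1.17 (adjusted p = 0.0154 and 0.0166). Axin2, a transcriptional target of Wnt signalling, differed between KO+Mut and parental cells by 0.59 (adjusted p = 0.146, and 0.0183 with the block).

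Markers of other cell states were read beside these results. The lists were chosen with earlier results of these data known, so the counts of calls in them are not independent evidence. The mean signal of 9 2C-like genes, which are expressed in 2-cell embryos, was 3.77 to 4.39 on the parental arrays, 2.46 to 2.76 in KO, 6.31 to 7.53 in KO+WT and 7.14 to 7.996 in KO+Mut, and 6 and 7 of the 9 rose against KO in KO+WT and KO+Mut. The 6 were Zscan4c, Zscan4e, Usp17le, Gm4340, Gm5662 and Tcstv3, in KO+WT by 4.87 (Tcstv3) to 8.49 (Zscan4e), and Duxf3, a form of the 2-cell activator Dux, was the further gene in KO+Mut, by 2.21 (limma adjusted p = 0.00156). The same 6 and 7 genes rose against parental cells. Duxf3 measured 1.13 to 1.49 in KO, 1.31 to 1.78 in parental cells and 2.04 to 2.34 in KO+WT. These values lie below the array lower quartiles (2.36 to 2.47), so the size of its differences is uncertain. In KO, 3 of the 9 fell against parental cells, Zscan4e by 4.41, Usp17le by 2.99 and Gm5662 by 2.20 (adjusted p = 0.000747, 0.00102 and 0.0449), and Zscan4c fell by 1.81 with the block (adjusted p = 0.233, blocked 0.0161). In the add-backs the mean of this list was higher than in KO, as was Fbxo15, while Prdm14 was lower. In KO it was lower than in parental cells, as was Fbxo15 without passing, while Prdm14 overlapped between these groups. The list's part in the Fbxo15 and Prdm14 differences was not tested. Signals are from bulk samples, in which fewer cells of a type and less RNA per cell cannot be told apart. The mean of 12 primitive endoderm markers was 6.01 to 6.70 in parental cells, 5.43 to 5.94 in KO, 5.49 to 5.64 in KO+WT and 5.37 to 5.58 in KO+Mut. In KO 11 of the 12 were lower than in parental cells, with a median of -0.72. Without the block 0 fell in KO, where 9 were lower at an unadjusted p under 0.05, and 2, the laminin genes Lamb1 and Lama1, fell in both add-backs against parental cells. With the block 2 fell in KO (Lama1 and the receptor gene Pdgfra, by 0.73 and 1.24) and 5 in each add-back (Lama1, Lamb1, Pdgfra, Dab2 and Cubn, by up to 2.58 for Cubn in KO+WT). The endoderm markers' part in the differences from parental cells was not tested.

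The mean of 11 formative and primed markers was 5.22 to 5.497 in parental cells and 4.97 to 5.19 in KO, 4.99 to 5.21 in KO+WT and 4.96 to 5.24 in KO+Mut, with 0 calls without the block. With the block 2 of them fell in KO against parental cells, the de novo methyltransferase gene Dnmt3b by 0.86 and the secreted Wnt modulator Sfrp2 by 0.76 (adjusted p = 0.00439 and 0.0279). With the block 4 fell in KO+WT and 4 in KO+Mut against parental cells, Dnmt3a, Dnmt3b, Otx2 and Sfrp2 in both, and Sox3 rose in KO+Mut by 0.69 (adjusted p = 0.0454). Their part in the differences from parental cells was not tested. The mean of 9 trophectoderm markers lay between 4.12 and 4.66 on all arrays and that of 11 fibroblast markers between 4.26 and 4.52. With the block the fibroblast marker Vim, an intermediate filament gene, fell against parental cells in KO, KO+WT and KO+Mut (adjusted p = 0.0387, 0.0314 and 0.00999), Pdgfrb rose in KO (0.0331), and the trophectoderm marker Tfap2c fell in KO+Mut (0.0202). Of the trophectoderm list, Ascl2, a basic helix-loop-helix factor of the placenta, rose in KO+Mut against KO by 0.84 (adjusted p = 0.00501) and against parental cells by 0.68 (adjusted p = 0.0247).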

How the data were processed

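The authors deposited normalized log2 signals, 1 per probe set and array, made with the Transcriptome Analysis Console per the submitters' processing notes from 100 ng of RNA labelled with the GeneChip WT Plus kit per the labels' protocols. For the background correction, summarization and genome build, details were not given in the sources used here; the log2 scale was read from the values. The array annotation gave 1 symbol for 23521 of the 41345 probe sets, several for 1814 and none for 16010. The single-symbol probe set of highest mean stood for its gene (22180 genes).

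A linear model per gene over all 12 arrays, with a mean for each group, was fitted by limma 3.58.1 under R 4.3.3 and moderated with eBayes, with two-sided p-values adjusted by Benjamini-Hochberg over all genes and a threshold of 0.05; the code was tested on simulated data. In all, 6 comparisons were made, plus 1 F test per gene. The genes and lists were chosen with earlier results of these data known. All 33 genes are named. Tests are given for those past the threshold with or without the replicate block and for the 3 of smallest p per comparison. Of other lists, genes past the threshold are named, or else a gene of smallest p where one is given. Blocked calls of these lists against KO are given as counts only.

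Titles number replicates 1 to 3. Deviations from group means of same-numbered arrays correlated at 0.36, 0.15 and 0.42 (KO, parental), 0.40, 0.21 and 0.47 (the add-backs), 0.33, 0.15 and 0.31 (KO+WT, parental) and 0.33, 0.13 and 0.36 (KO+Mut, parental), above the limit of 0.1, so numbers were taken to pair these arrays and the blocked value is printed where it changes a call. Figures used Python 3.11.15 and matplotlib 3.10.9.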

Additional observations from a re-analysis of the deposited data

How the results depend on the processing

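With the replicate block, the counts of the 33 genes higher and lower than KO were 2 and 1 for KO+WT (1.59% and 0.636% of all genes), then 2 and 4 for KO+Mut (2.16% and 1.06%). Against parental cells they were 2 and 4 for KO+WT (1.07% and 0.996%), then 3 and 7 for KO+Mut (1.59% and 1.54%). Of the 33 genes 11 differed among the 4 groups (3.92% of all genes). The block changed no call of the 33 genes in KO against parental cells or between the add-backs. For the add-backs and KO, number 2 correlated below the limit of 0.1, at 0.06 for KO+WT and 0.08 for KO+Mut. Numbers 1 and 3 correlated at 0.31 and 0.29 for KO+WT, then 0.31 and 0.36 for KO+Mut. In both, 6 of 6 arrays correlated best with their own number. By the limit these arrays were not taken as paired, though each of these groups was paired with parental cells. Both fits are therefore given for the 33 genes. Against KO the block added Jak1, higher in both (limma adjusted p = 0.025 and 0.0161). It also added Sox2, Il6st and Fgf4, lower in KO+Mut (0.0461, 0.0184 and 0.0424). For the other lists only blocked counts against KO are given. In KO+WT, 1 other LIF and JAK-STAT gene and 1 trophectoderm marker were higher, and 1 formative or primed marker was lower. In KO+Mut each of these lists had 1 higher and 1 lower. Also in KO+Mut, 1 FGF, Nodal and Wnt gene and 1 fibroblast marker were higher. There, 1 other pluripotency-associated gene and 1 primitive endoderm marker were lower.

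In fits of the 6 compared arrays, KO+WT against KO gave 0 higher and 0 lower, KO+Mut against KO 0 lower and KO+WT against parental cells 0 lower. With trend and robust variances there were 2 lower in KO+Mut against KO, 2 lower in KO+WT and 2 in KO+Mut against parental cells. In that order the lower calls over all genes numbered 48, 63 and 108, in place of 34, 51 and 75. With these variances 4 of the 33 genes differed among the groups, a count not made over all genes. The lower count of KO+WT against parental cells was 0 after repeated quantile normalization, 2 without genes below percentile 25 and 2 with array weights. Over all genes it was 60, 57 and 72, in place of 51. The lower count of KO+Mut against parental cells was 1 after median centring, 1 without low genes and 3 with array weights. Over all genes it was 109, 103 and 173, in place of 75. Leaving out each array in turn gave 1 to 1 higher and 0 to 1 lower for both add-backs against KO, 0 to 0 lower for KO+WT against parental cells, and 0 to 1 higher and 0 to 1 lower for KO+Mut against parental cells. It gave 2 to 3 genes differing among the groups. The causes were not tested. Among the 32 gene comparisons carried through the alternatives, 0 reversed. They were chosen for passing the threshold or for a small p, so a reversal was unlikely from the start. Other genes near 0 changed sign with the scaling: in KO 16 of the 33 were higher than in parental cells as deposited, 21 after centring and 18 with array weights. Of the 33 genes 21 to 25 were lower in KO+WT than in KO, and 23 to 28 in KO+Mut, as deposited, after quantile normalization and after centring. The upper counts of 25 and 28 came from centring, which moved the median of all genes to -0.08 and -0.09. As deposited, 11119 and 11385 of all 22180 genes were lower. Genes near the lower quartile of an array (2.36 to 2.47) may have compressed differences; none of the 33 lay there.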
